A study of Rattus norvegicus with 72 samples.

Results

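The 2 sets of control cultures of primary rat hepatocytes that were run beside NNK and beside 2-nitrofluorene were set against each other. The 12 arrays are those titled as controls of NNK and those titled as the shared controls of 2-nitrofluorene, piperonyl butoxide and nifedipine, out of 72 arrays in the series. They make 6 pairs of the same exposure time and the same D number, a sample number in the titles, over all probe sets except the 57 control probe sets.

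The series profiled hepatocytes, cells freshly isolated from rat liver by collagenase and kept as a monolayer, after exposure to 8 compounds. Its design compares carcinogens and non-carcinogens in this culture with the liver of dosed rats, and the liver data are not analysed here. The NNK control at 24 h, the NNK control at 72 h, the 2-nitrofluorene-set control at 24 h and the 2-nitrofluorene-set control at 72 h had 3 arrays each, with D numbers 7, 8 and 9. The time is the length of the exposure period, which began 18 to 20 h after plating. All 4 groups shared the serum-free medium with hydrocortisone and insulin that followed attachment. Neither control is labelled as given a compound. NNK is a tobacco nitrosamine, used at 625 µM in its own group, and 2-nitrofluorene, an air pollutant from combustion, was used at 78 µM. The vehicle, and what set the 2 control conditions apart, are unstated in the labels, and so are the rats' strain, sex and age and the meaning of the D number. Whatever else differed between the 2 sets cannot be told apart from the label.

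Hepatocytes in monolayer culture are known to lose liver functions over days, as transcripts for plasma proteins, urea cycle enzymes and cytochromes P450 decline. At the same time the cells flatten and spread, and genes of actin filaments and of the focal adhesions that tie them to the substrate rise. Each compound of the series is read against its own control group. A difference between 2 controls bears on comparisons across their sets. Whether it reaches a compound's contrast with its own control was not tested.

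Arrays were comparable in their general measures. The median signal of the 12 control arrays lay between 19.5 and 23.7 units of MAS5 intensity, and between 19.1% and 21.0% of the values of each array were at the floor of 3.12. The highest correlation of any of the 12 with another array was 0.983, and none was taken for a repeat of another. Hepatocyte markers were strong on all 12. The summed signal of 33 hepatocyte function genes at 24 h was between 79552 and 87013 in the NNK control, against 103281 to 119763 in the 2-nitrofluorene-set control. At 72 h the sums were 58659 to 91991 in the NNK control and 68757 to 83829 in the 2-nitrofluorene-set control. The sums did not overlap at 24 h and overlapped at 72 h.

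The paired controls differed about as much as arrays of different D numbers did. Over 18048 probe sets the median absolute log2 difference within the 6 control pairs was 0.220, 0.170 and 0.172 at 24 h and 0.255, 0.193 and 0.210 at 72 h (D numbers 7, 8 and 9 in turn), a mean of 0.203 ± 0.0323 (SD, n = 6 pairs). Arrays of different D numbers within a control differed by 0.181 to 0.287 in the NNK control and by 0.203 to 0.290 in the 2-nitrofluorene-set control. NNK against its own control gave 0.196 to 0.338, 2-nitrofluorene 0.206 to 0.296, nifedipine 0.220 to 0.323 and piperonyl butoxide 0.154 to 0.253. Arrays of 72 h and 24 h of the same D number were farther apart, at 0.306 to 0.371 in the NNK control and 0.271 to 0.364 in the 2-nitrofluorene-set control.

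**Figure D1:**
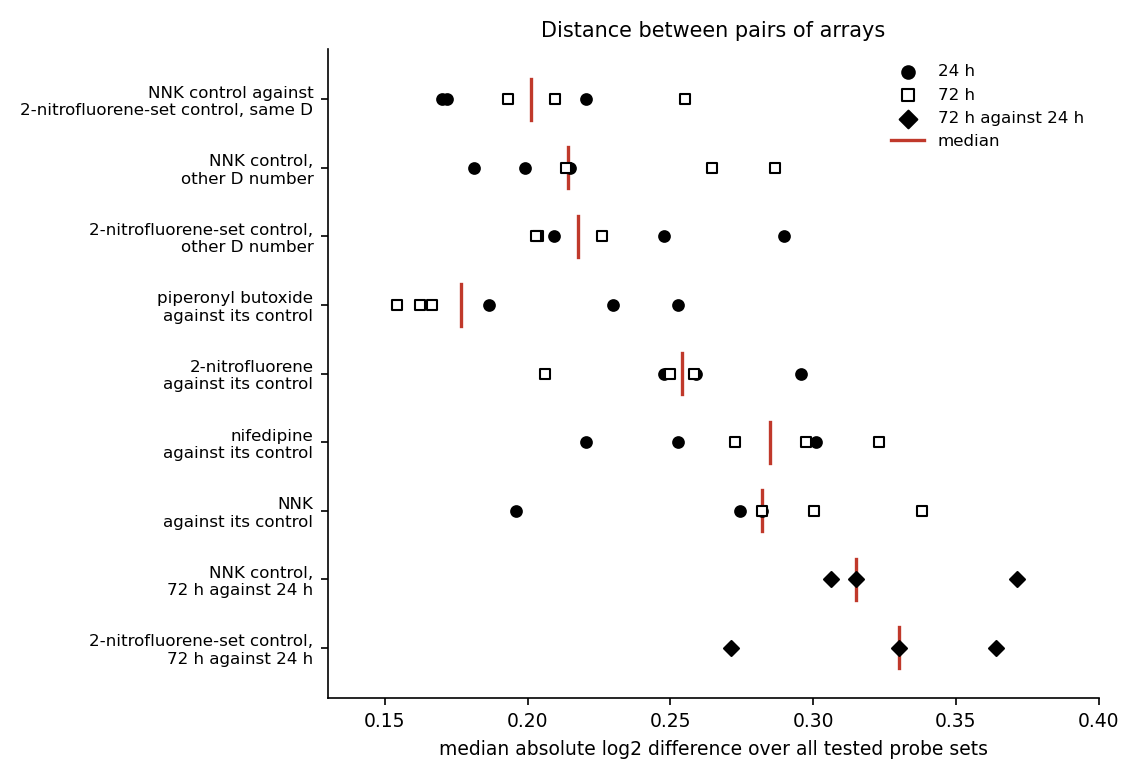
Median absolute log2 difference between 2 arrays over 18048 probe sets (x axis), with 1 mark per pair of arrays and a vertical line at the median of each kind. The pairs of NNK control and 2-nitrofluorene-set control lie between 0.170 and 0.255, and every 72 h against 24 h pair lies at 0.271 or above.

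The question was which genes differed between the controls once the shared D number was allowed for. In limma's fit with a term for each time and D number, 517 of 18048 probe sets (2.86%) passed a Benjamini-Hochberg adjusted p under 0.05 for the mean of both times. Of these, 287 (1.59%) were higher and 230 (1.27%) lower in the NNK control. At the level of genes, each taken by its brightest probe set, 348 of 10178 passed (3.42%), 172 higher (1.69%) and 176 lower (1.73%). The changes were mostly small, with a median absolute log2 difference of 0.40, a range of 0.17 to 1.84 and 21 probe sets above 1. Signals did not overlap at either time for 125 probe sets higher in the NNK control (0.693%) and 109 lower (0.604%), which is 80 genes (0.786%) and 72 genes (0.707%). The same sign in all 6 pairs was held by 926 probe sets higher (5.13%) and 891 lower (4.94%), or 556 (5.46%) and 591 genes (5.81%). The count rests on the pairing: with no replicate block it was 11 in the same 36 arrays, among them Car3, Lmcd1, Cxcl10 and Crp, and 0 with all 72 arrays, where 556 had an unadjusted p under 0.05. Without the D number 7, 8 or 9 arrays it was 213, 77 and 63. All 517 kept their direction in each of these fits, which reuse arrays on which the 517 were chosen and so favour it. Removing the block leaves each difference unchanged by design. The 6 pairs are not 6 separate units, since each D number was used at both times. With a block by D number shared between times, 25 passed.

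The clearest single difference was Car3, which encodes a carbonic anhydrase that is abundant in liver, fat and muscle. Its signal at 72 h was 436, 798 and 733 in the NNK control, against 70, 102 and 84.5 in the 2-nitrofluorene-set control. At 24 h it was 210, 199 and 397 in the NNK control, against 136, 133 and 180 in the 2-nitrofluorene-set control. The groups did not overlap at either time. The log2 difference was 2.91 ± 0.31 (SE) at 72 h (limma adjusted p = 7.38e-06) and 1.84 ± 0.22 over both times (limma adjusted p = 2.3e-05), and a second Car3 probe set passed in the same direction. The 24 h difference of 0.78 ± 0.31 did not pass by itself (limma adjusted p = 0.309), and the difference between the times, 2.12, did not pass either (limma adjusted p = 0.241).

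Cyp17a1, a steroid hydroxylase, came next in size. Its signal was 111, 113 and 177 at 24 h and 102, 78.6 and 106 at 72 h in the NNK control. In the 2-nitrofluorene-set control it was 44.9, 37.5 and 59.6 at 24 h and 19.2, 23.9 and 30.4 at 72 h. The groups were apart at both times, by 1.73 ± 0.30 on the log2 scale over both (limma adjusted p = 0.00143). Dio3, the deiodinase that inactivates thyroid hormone, was higher by 1.06 ± 0.23 (limma adjusted p = 0.00871) and Fosl2, a subunit of the AP-1 transcription factor, by 0.88 ± 0.19 (limma adjusted p = 0.00925). Il1rl1, the receptor for interleukin 33, and Tfpi2, a protease inhibitor of the extracellular matrix, were higher by 1.30 and 1.03, both at dim signals. With a floor of 16 these differences were 0.47 and 0.62 and did not pass (limma adjusted p of 0.182 and 0.208).

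**Figure D2:**
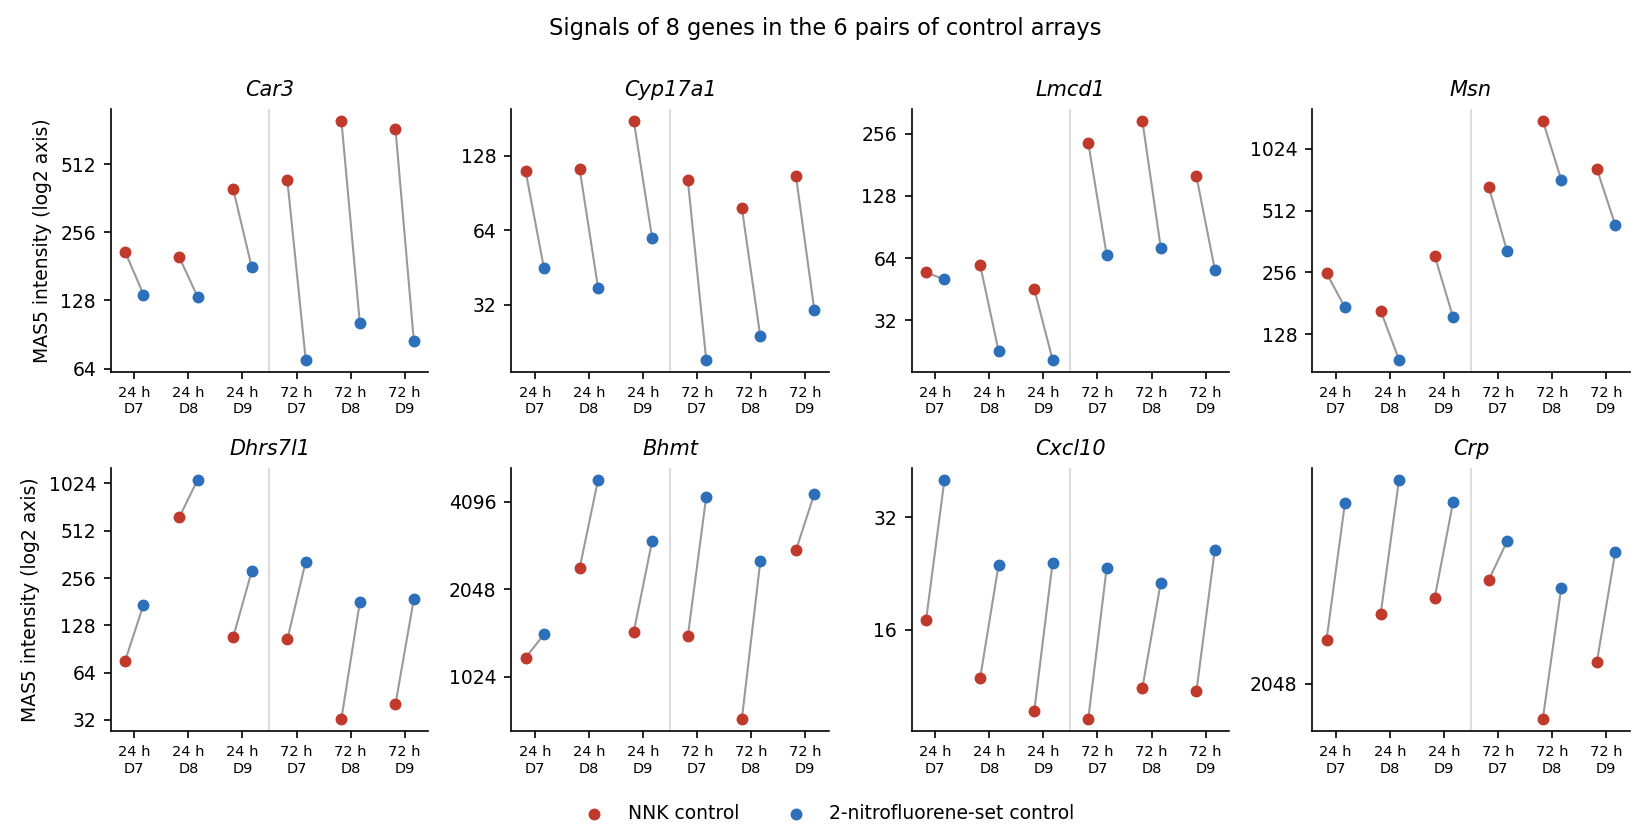
MAS5 intensity (y axis, log2 scale, a range of its own for each gene) of 8 genes in the 6 pairs of control arrays (x axis), with a line joining the arrays of a pair. In each of these genes the NNK control lies on the same side of the 2-nitrofluorene-set control in all 6 pairs, above it for Car3, Cyp17a1, Lmcd1 and Msn and below it for Dhrs7l1, Bhmt, Cxcl10 and Crp.

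A part of the genes of actin filaments and of their anchorage was higher in the NNK control. Of 30 measured members of a cytoskeleton and matrix list, 5 passed as higher and 0 as lower, with 24 positive and a median of 0.22, beside 1.69% of all genes higher and a median of -0.01 for all genes. The 5 were Flna, Actn1, Myl9, Tagln and Anxa3. This list held 0 calls with no replicate block, and 5, 0 and 2 calls without the D number 7, 8 or 9 arrays. In a wider list of 60 measured actin filament and focal adhesion genes, 29 passed as higher and 0 as lower, 57 were positive and the median was 0.28. That wider list was drawn up after values were seen and some members were taken because they had passed, so its count describes these genes and supports nothing further. The wider list held 1 call with no replicate block and 15, 5 and 10 calls without the D number 7, 8 or 9 arrays. In each of these 4 fits 54 to 58 of its members were positive, a count that could hardly differ. Removing the block leaves every difference unchanged, and the other fits reuse the same arrays.

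Lmcd1, a LIM domain cofactor of transcription in muscle and heart, had the largest difference in the wider list and is not in the cytoskeleton and matrix list. At 24 h its signal was 54.6, 59.2 and 45.4 in the NNK control, against 50.4, 22.8 and 20.6 in the 2-nitrofluorene-set control. At 72 h it was 231, 296 and 159 in the NNK control, against 66.3, 71.8 and 56.3 in the 2-nitrofluorene-set control. The arrays were apart at 72 h and overlapped at 24 h through the D number 7 pair, and the log2 difference over both times was 1.33 ± 0.15 (limma adjusted p = 1.94e-05).

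Msn, moesin, links the actin cortex to the plasma membrane. Its signal was 254, 167 and 309 at 24 h and 668, 1400 and 815 at 72 h in the NNK control, and 173, 96.3 and 155 at 24 h and 324, 723 and 435 at 72 h in the 2-nitrofluorene-set control. The groups overlapped at both times because D numbers differed in level, while each pair differed by 0.56 to 1.05, and the fitted difference was 0.87 ± 0.13 (limma adjusted p = 0.000171). Filip1l was higher by 0.89 ± 0.11 and Fhl3, a LIM domain protein that binds actin, by 0.80 ± 0.10 (limma adjusted p = 3.04e-05 for both). Flna, filamin A, which crosslinks actin filaments, was higher by 0.64 ± 0.13, Actn1, which encodes an α-actinin, by 0.59 ± 0.15, and Tagln, transgelin, by 0.97 ± 0.23 (limma adjusted p of 0.00658, 0.0239 and 0.0215 in that order). Smaller rises that passed included Vasp, which promotes filament elongation (0.50), the focal adhesion adaptors Lims1 (0.44), Ilk (0.31) and Pxn (0.30), and Capzb, a filament capping subunit (0.27).

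Some genes of the extracellular matrix were among those that passed at 72 h. Those given here were named by size or from a list of stellate cell markers, and matrix genes were not counted as a set. Other matrix genes did not pass over both times, among them Fn1 (-0.025), Sparc (0.04), Dcn (0.11) and Col1a1 (0.64). Col6a3, a collagen VI chain, had 28.1, 168 and 91.2 at 72 h in the NNK control, against 11.2, 37.5 and 22 in the 2-nitrofluorene-set control. The groups overlapped, and the pairs differed by 1.33, 2.16 and 2.05. The 72 h difference was 1.85 ± 0.31 (limma adjusted p = 0.00151). Spon2, a secreted matrix protein, had 47.3, 112 and 47.4 in the NNK control and 13.7, 23.9 and 14.0 in the 2-nitrofluorene-set control at 72 h, with no overlap and a difference of 1.92 ± 0.48 (limma adjusted p = 0.0375). Col3a1, a fibrillar collagen of fibroblasts and stellate cells, was higher by 0.81 ± 0.13 at 72 h (limma adjusted p = 0.00151).

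Several of these transcripts are also made by the stellate cells that can remain in a hepatocyte preparation. Of 13 measured stellate cell markers 1 passed over both times, Col3a1, and 2 passed at 72 h, Col3a1 and Col1a2 (1.16 ± 0.29, limma adjusted p = 0.0365), beside 0.914% of all genes higher at 72 h. All 13 were positive over both times, and the list's median was 0.06 at 24 h and 0.51 at 72 h. The summed signal of the 18 stellate markers on the array was 1407 to 3194 at 72 h in the NNK control, against 824 to 1835 in the 2-nitrofluorene-set control, and 883 to 1985 at 24 h in the NNK control, against 783 to 2036 in the 2-nitrofluorene-set control. Hgf, a stellate product, was at the floor on all 12 arrays. In RNA from whole cultures more cells of a type and more RNA per cell cannot be told apart, and the part of stellate cells in the matrix and actin differences was not tested. Of 16 macrophage and immune markers 1 passed, Cd74, and none of 8 endothelial or 6 bile duct markers did (0 of each by limma).

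Cd74 and RT1-Da, the invariant chain and an alpha chain of the MHC class II complex, fell with culture time in the methapyrilene controls and were higher in the NNK control at 72 h. RT1-Da had 52.0, 159 and 66.2 in the NNK control at 72 h, against 27.9, 66.1 and 19.6 in the 2-nitrofluorene-set control. The groups overlapped, each pair was higher in the NNK control, and the difference was 1.31 ± 0.23 (limma adjusted p = 0.00222). Cd74 was higher by 0.65 ± 0.15 at 72 h (limma adjusted p = 0.0261). The lists they belong to were mixed over both times: 10 of 16 histocompatibility genes were negative, and the immune markers were 8 positive and 8 negative. The other class II genes were RT1-Bb (0.60), RT1-Db1 (0.35), RT1-Ba (0.17), RT1-DMa (0.14) and RT1-DMb (-0.04), none of which passed. The class I genes were negative except RT1-M3-1 (0.07), with RT1-S3 lower by 0.43 (limma adjusted p = 0.0178).

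**Figure D3:**
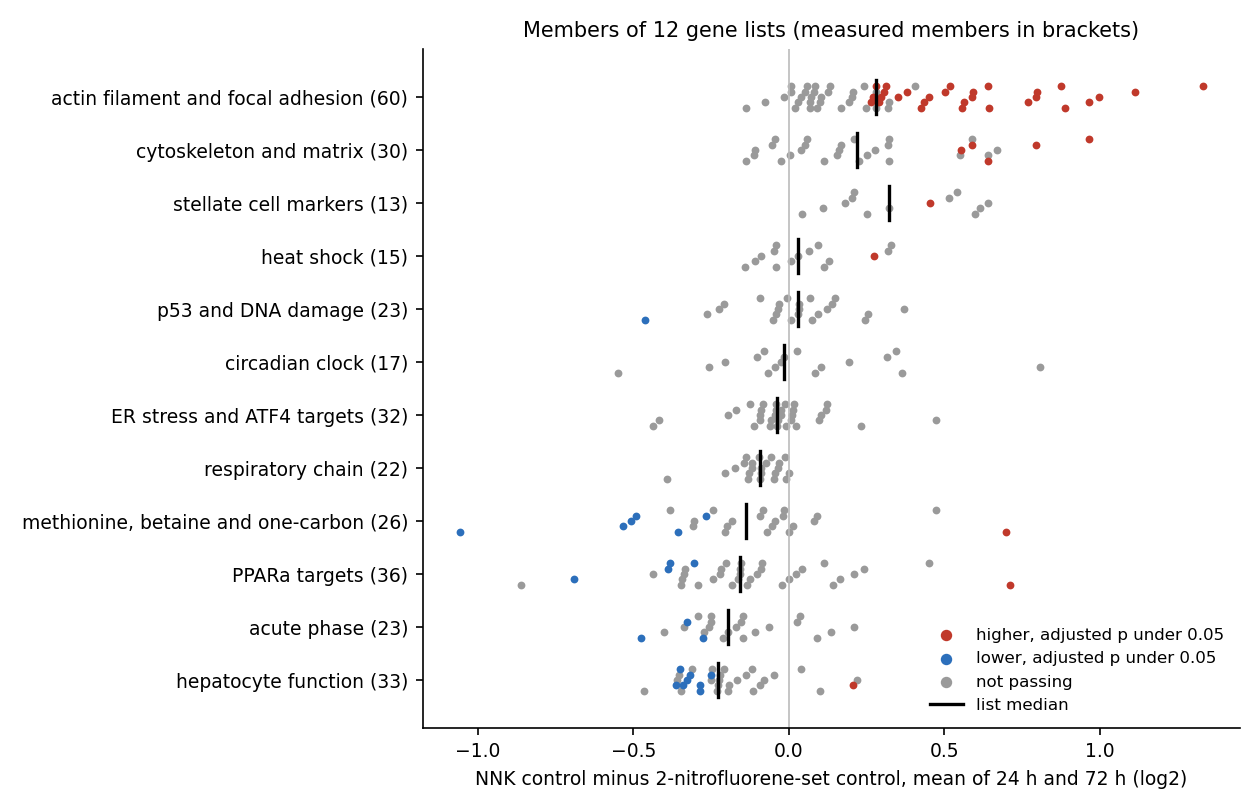
Log2 difference, NNK control minus 2-nitrofluorene-set control over both times (x axis), of each measured member of 12 gene lists (y axis), coloured where limma's adjusted p was under 0.05, with a bar at the list's median. Members of the actin list, which was drawn up after values were seen, reach 1.33, and the hepatocyte function, acute phase and PPARα lists lie below 0 at their medians (-0.23, -0.20 and -0.16).

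A part of the liver function genes was lower in the NNK control. Of 33 measured hepatocyte function genes, 8 passed as lower and 1 as higher, and 29 were negative, with a median of -0.23, beside 1.73% of all genes lower. The 8 were Cebpa and Hnf4a, transcription factors of hepatocyte identity, Tat and Fah of tyrosine breakdown, Cps1 and Arg1 of the urea cycle, Apoc3, an apolipoprotein, and Fgb, a fibrinogen chain. Glul, glutamine synthetase, was the 1 higher, by 0.20. The 8 calls became 0 with no replicate block and 2, 1 and 1 without the D number 7, 8 or 9 arrays. In these 4 fits 28 to 31 members were negative, a count that could hardly differ since the fits reuse the same arrays. The median was -0.11 after quantile normalization, with 27 negative.

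These differences were small in size, and 7 of the 8 genes were lower in all 6 pairs, Arg1 being the exception. Over the list 11 of 33 were. Tat had 1300, 1840 and 1680 at 24 h and 1130, 687 and 956 at 72 h in the NNK control. In the 2-nitrofluorene-set control it had 1980, 2270 and 2240 at 24 h and 1260, 832 and 1210 at 72 h. The groups were apart at 24 h and overlapped at 72 h, and every pair was lower, by 0.16 to 0.62 (mean -0.35 ± 0.07, limma adjusted p = 0.0029). Hnf4a was lower by 0.09 to 0.40 in the 6 pairs (mean -0.25 ± 0.06, limma adjusted p = 0.0262), and Cebpa by 0.09 to 0.68 (mean -0.36 ± 0.08, limma adjusted p = 0.00658). Other probe sets gave less: 0 of 2 further Hnf4a probe sets and 1 of 4 further Cebpa probe sets passed. Alb, serum albumin, had 4340, 3050 and 4640 at 24 h in the NNK control, against 10400, 5530 and 6580 in the 2-nitrofluorene-set control. At 72 h it had 11300, 3220 and 5210 in the NNK control, against 6480, 5080 and 3930 in the 2-nitrofluorene-set control. Alb was apart at 24 h, overlapped at 72 h and did not pass (-0.35 ± 0.19, limma adjusted p = 0.381).

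The acute phase list holds plasma proteins that the liver secretes in inflammation. Of 23 measured members 4 passed as lower at 24 h, Crp and the fibrinogen chains Fga, Fgb and Fgg, beside 0.157% of all genes, and the list's median was -0.42 at 24 h and 0.01 at 72 h. Over both times 3 passed as lower, Crp, Fgb and Fgg, which became 1 with no replicate block and 1, 0 and 2 without the D number 7, 8 or 9 arrays. After quantile normalization 1 passed and the median over both times was -0.04, against -0.20 without it. Crp, C-reactive protein, had 2340, 2530 and 2660 at 24 h in the NNK control, against 3550, 3810 and 3560 in the 2-nitrofluorene-set control. At 72 h it had 2810, 1840 and 2190 in the NNK control, against 3160, 2740 and 3060 in the 2-nitrofluorene-set control. The groups were apart at 24 h and overlapped at 72 h, with a difference of -0.47 ± 0.08 over both (limma adjusted p = 0.000792). Fgg was lower by 0.49 ± 0.10 at 24 h (limma adjusted p = 0.0367) and differed by -0.06 ± 0.10 at 72 h (limma adjusted p = 0.83), while the test of the difference between the times passed for no gene.

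Ranked by size after the values were seen, the 6 genes with a symbol that had the largest falls over both times among those that passed were Dhrs7l1 (-1.62), Capn5 (-1.32), Scn10a (-1.31), Speg (-1.21), Cxcl10 (-1.18) and Sez6 (-1.08). Capn5, Scn10a and Speg did not meet all the conditions for named genes given below (signal, floor and the same sign in every pair), unlike the other genes of this ranking. Dhrs7l1, a short-chain dehydrogenase, had 75.9, 622 and 108 at 24 h in the NNK control, against 173, 1080 and 282 in the 2-nitrofluorene-set control. The 72 h values were 104, 32.5 and 40.3 in the NNK control, against 326, 179 and 189 in the 2-nitrofluorene-set control. The D number 8 arrays stood far above the others at 24 h in both controls, so the groups overlapped there and were apart at 72 h, and the difference was -1.62 ± 0.20 (limma adjusted p = 3.42e-05). Among further metabolic enzymes Gstm7, a glutathione transferase, was lower by 0.72 ± 0.11, Cyp2d3, a cytochrome P450, by 0.65 ± 0.10, and Alas1, which starts heme synthesis, by 0.45 ± 0.09 (limma adjusted p of 0.000507, 0.000273 and 0.00468 in that order). Fbp1, a gluconeogenic enzyme, was lower by 0.43.

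Some genes of the methionine and betaine pathway passed as lower and 1 as higher. Bhmt, which remakes methionine from homocysteine with betaine, had 1190, 2420 and 1460 at 24 h in the NNK control, against 1430, 4870 and 3000 in the 2-nitrofluorene-set control. The 72 h signals were 1410, 733 and 2790 in the NNK control, against 4250, 2550 and 4360 in the 2-nitrofluorene-set control. All pairs were lower, by 0.27 to 1.80, although the groups overlapped at both times, and the difference was -1.06 ± 0.19 (limma adjusted p = 0.00199). Bhmt2 was lower by 0.49 ± 0.08, Gnmt, which methylates glycine, by 0.51 ± 0.12, and Dmgdh, which breaks down dimethylglycine, by 0.53 ± 0.09 (limma adjusted p of 0.000972, 0.0147 and 0.00106 in that order). In a list of 26 measured genes of this pathway, drawn up after values were seen, 6 passed as lower and 1 as higher, beside 1.73% and 1.69% of all genes, a count that describes these genes and supports nothing further. The 1 higher was Mtr, methionine synthase, which remakes methionine by the folate route, at 0.70 ± 0.16 (limma adjusted p = 0.0164). With no replicate block none of these calls passed (0 of 26), and 5, 2 and 4 of the lower ones were called without the D number 7, 8 or 9 arrays.

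Fatty acid oxidation genes under PPARα, the receptor that senses fatty acids, were lower in part. Of 36 measured targets 4 passed as lower, Ehhadh, Cpt2, Decr1 and Acadm, and 1 as higher, the fatty acid transporter Cd36 (0.71), with a median of -0.16, beside 1.73% of all genes lower. The 4 lower calls became 0 with no replicate block and 2, 0 and 0 without the D number 7, 8 or 9 arrays. Ehhadh, a peroxisomal enzyme, had 104, 120 and 109 at 24 h and 151, 55.0 and 171 at 72 h in the NNK control. In the 2-nitrofluorene-set control it had 217, 180 and 161 at 24 h and 176, 99.2 and 317 at 72 h. The groups were apart at 24 h and overlapped at 72 h, with a difference of -0.69 ± 0.18 (limma adjusted p = 0.0274). Cyp4a1, a fatty acid hydroxylase, was lower in all 6 pairs, by 0.63 to 1.07, and did not pass (-0.86 ± 0.28, limma adjusted p = 0.0893).

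Cxcl10, a chemokine induced by interferon, was lower at both times. It had 17, 11.9 and 9.71 at 24 h and 9.27, 11.2 and 11 at 72 h in the NNK control, and 40.2, 23.8 and 24.2 at 24 h and 23.4, 21.4 and 26.2 at 72 h in the 2-nitrofluorene-set control. The groups were apart at both times, and the difference was -1.18 ± 0.17 (limma adjusted p = 0.000128). The signals are dim, close to the table's median of 19.7, and the difference was -0.61 with 16 added to each value before the log. Of 18 measured inflammation and chemokine genes, 3 passed as lower and 0 as higher, beside 1.73% and 1.69% of all genes. They were Cxcl10, Cxcl11 (-0.54) and Ccl20 (-0.78), the last passing in 2 of 28 alternative fits. In an added chemokine list, chosen with earlier results known, 4 of 17 passed as lower and 1 as higher, Ccl6 (0.76). Of 22 interferon-induced genes 1 passed as lower, Stat2 (-0.36), and 19 were negative. S1pr1, a receptor for the lipid signal sphingosine-1-phosphate, was lower by 0.83 ± 0.17 (limma adjusted p = 0.00575), and its groups did not overlap at either time.

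Fewer probe sets passed at 24 h than at 72 h, and few passed at both. At 24 h, 39 probe sets (0.216%) passed, 19 higher (0.105%) and 20 lower (0.111%), and at 72 h, 281 (1.56%), 159 higher (0.881%) and 122 lower (0.676%). By genes these were 10 higher (0.0983%) and 16 lower (0.157%) at 24 h and 93 higher (0.914%) and 94 lower (0.924%) at 72 h. Of the 281, 234 (83.3%) had the same direction at 24 h and 167 had it in all 3 pairs, while 11 passed at both times. The shares of all probe sets with these directions were not computed, so the 234 and 167 have no background beside them. The 24 h and 72 h controls are separate arrays, and the correlation of the 2 differences over all 18048 probe sets was 0.17, given as a description since probe sets are not independent and each time's arrays share D numbers. No probe set passed limma's test of the difference between the times (0%), although 1652 had an unadjusted p under 0.05, the smallest adjusted p being 0.241. Without D number 7, 8 or 9 the counts were 13, 0 and 0 at 24 h and 79, 14 and 48 at 72 h.

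Genes called at 24 h included Fhl3 again, Hacd1, a dehydratase of fatty acid elongation, and Sult6b2, a sulfotransferase. Hacd1 had 251, 202 and 241 in the NNK control, against 150, 113 and 135 in the 2-nitrofluorene-set control, with no overlap (0.81 ± 0.13, limma adjusted p = 0.0079). Sult6b2 had 182, 233 and 169 at 24 h in the NNK control, against 80.3, 112 and 78.3 in the 2-nitrofluorene-set control, and 543, 578 and 562 at 72 h in the NNK control, against 543, 597 and 409 in the 2-nitrofluorene-set control. It was apart at 24 h (1.11 ± 0.18, limma adjusted p = 0.00997) and overlapped at 72 h (0.14 ± 0.18, limma adjusted p = 0.795). Rdh7, a retinol dehydrogenase, ran the other way, with a difference of -0.04 ± 0.12 at 24 h (limma adjusted p = 0.951) and -0.84 ± 0.12 at 72 h (limma adjusted p = 0.000374).

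**Figure D4:**
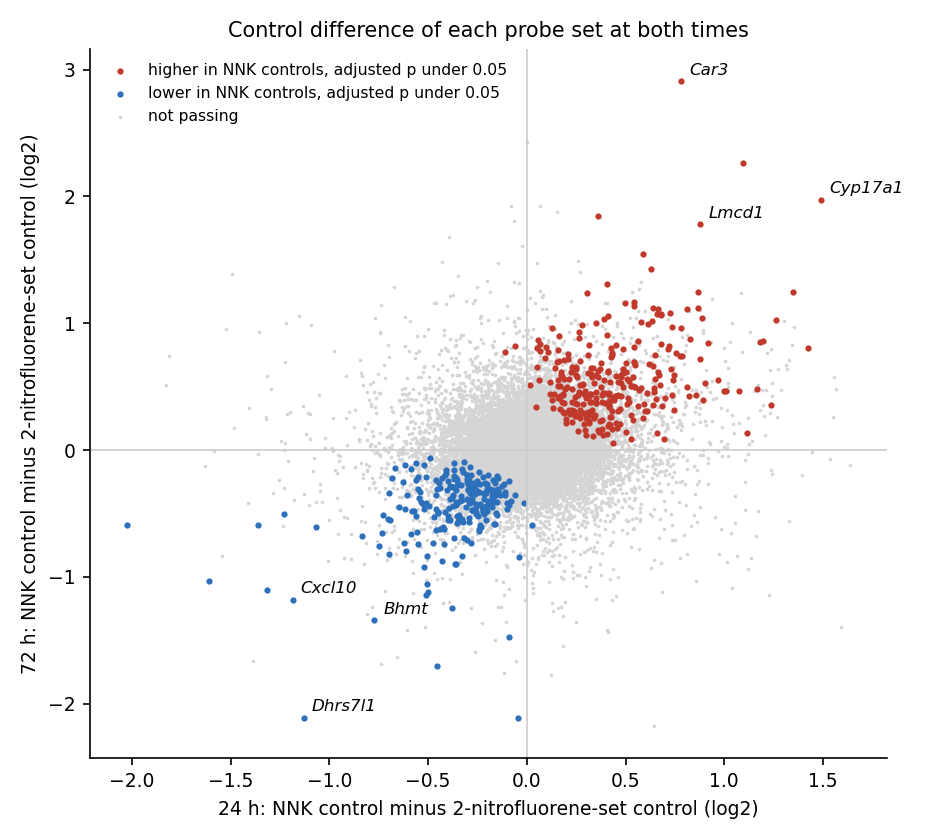
Log2 difference, NNK control minus 2-nitrofluorene-set control, of 18048 probe sets at 24 h (x axis) and 72 h (y axis), with those that passed over the mean of both times coloured. The 287 higher and 230 lower probe sets lie mostly in the quadrants where both times have the same sign, as the mean over both times favours, and Car3 stands highest at 72 h.

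The control difference was then set against culture time as measured elsewhere in the series. In the methapyrilene control arrays, which share no array and no D number with the 12, 1258 probe sets differed between 24 h and 72 h. A score over these probe sets, 0 at the methapyrilene controls' 24 h mean and 1 at their 72 h mean, was 0.287, -0.0236 and 0.0987 at 24 h in the NNK control, against 0.183, -0.141 and -0.0463 in the 2-nitrofluorene-set control. At 72 h it was 0.852, 1.18 and 0.901 in the NNK control, against 0.753, 0.937 and 0.735 in the 2-nitrofluorene-set control. It was higher in the NNK control in 6 of 6 pairs, by 0.145 ± 0.0532 (SD), which gave p = 0.03125 in an exact two-sided sign permutation over the 6 pairs, the smallest that 6 pairs allow. The 6 pairs come from 3 D numbers, each used at both times, and with both times of a D number flipped together the exact permutation p was 0.25, the smallest that 3 allow. With the 100 probe sets of smallest p the difference was 0.0890, higher than 0 with the same exact sign permutation p over 6 pairs. Adjusted over the 3 such measures computed, the p over 6 pairs was 0.0938 by the same exact permutation, which misses the threshold. With labels permuted within each time, without the pairing, the exact p was 0.12. The score depends on the main filter and floor. With no filter, or with the higher floor tried, no probe set passed in the methapyrilene controls and no score could be had. For scale, the score rose by 0.856 ± 0.321 between 24 h and 72 h in the NNK control and by 0.810 ± 0.255 in the 2-nitrofluorene-set control (SD, n = 3 each).

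The genes called between the controls overlapped with those of culture time under the main filter and floor. With no filter, or with the higher floor tried, no probe set passed in the methapyrilene controls, so no such overlap could be counted. Of the 287 probe sets higher in the NNK control, 75 (26.1%) were higher at 72 h in the methapyrilene controls and 6 (2.09%) lower, beside 4.07% and 2.90% of all probe sets. Of the 230 lower, 55 (23.9%) were lower at 72 h and 4 (1.74%) higher. Lmcd1 was among the first, with a 72 h minus 24 h change of 1.53 in the methapyrilene controls, as were Filip1l (1.87), Msn (1.85) and Tagln (2.76). Dhrs7l1 (-1.42), Crp (-0.79), Gnmt (-0.98) and Fah (-0.97) were among the second. Other leading genes were not: the change with time was 0.49 for Car3, -0.69 for Cyp17a1 and -0.03 for Cxcl10, none of which passed in the methapyrilene controls (limma adjusted p of 0.678, 0.0503 and 0.971 in that order), and Cd74 and RT1-Da ran the other way, at -2.08 and -2.56. Over all 18048 probe sets the correlation of the control difference with the change over time was 0.25, a description.

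**Figure D5:**
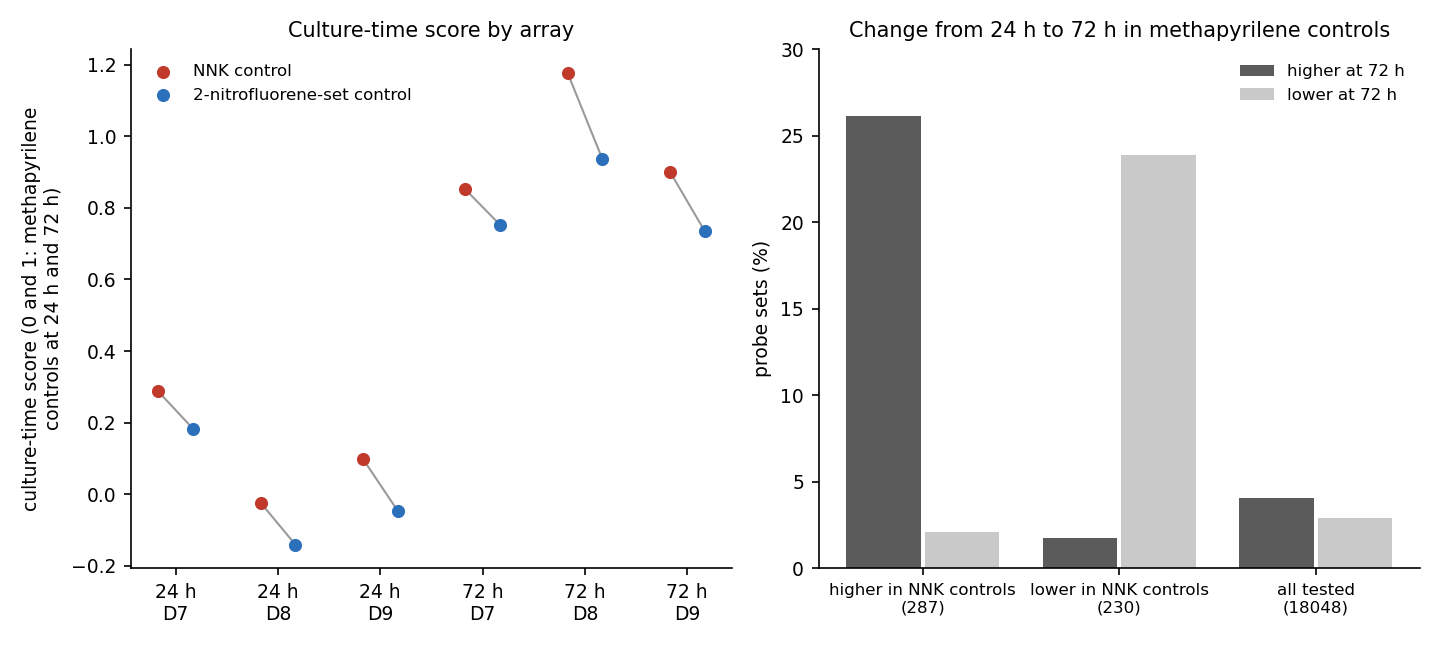
Left, the culture-time score of each control array (y axis) in the 6 pairs (x axis), with lines joining pairs, and the NNK control above its partner in each. Right, the percentage of probe sets (y axis) that were higher or lower at 72 h in the methapyrilene controls, for the sets higher or lower in the NNK control and for all tested (x axis), at 26.1% higher for the first set and 23.9% lower for the second.

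The 3' over 5' ratio of the actin control probe sets, a measure of RNA integrity, moved with the comparison. On the log2 scale it was 0.582, 0.728 and 0.6254 at 24 h in the NNK control, against 1.11, 0.783 and 0.863 in the 2-nitrofluorene-set control. The 72 h ratios were 0.592, 0.609 and 0.669 in the NNK control, against 0.752, 0.627 and 0.668 in the 2-nitrofluorene-set control. It was lower in 5 of 6 pairs, by a mean of -0.166 ± 0.198 (SD, exact sign permutation p = 0.0625), and by -0.0776 without D number 7. The same ratio for GAPDH differed by 0.0271 ± 0.0810 (exact sign permutation p = 0.4375). With the actin ratio as a covariate 213 probe sets passed over both times, 186 of them among the 517. All 517, chosen on these same arrays, kept their direction. In that fit the wider actin list held 14 calls in place of 29, the cytoskeleton and matrix list 2 in place of 5, hepatocyte function 3 lower in place of 8, PPARα 2 lower in place of 4 and the methionine list 4 lower in place of 6. In the 12 control arrays alone with the covariate these were 4, 1, 0, 0 and 0.

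In most of the other gene lists few members passed over both times, beside 1.69% of all genes higher and 1.73% lower. Of 18 glycolysis and gluconeogenesis genes 2 passed as lower, Fbp1 (-0.43) and Pgk1 (-0.29), with 9 positive and 9 negative. Of 23 measured p53 and DNA damage genes only Sesn1 passed, lower by 0.46 ± 0.10 (limma adjusted p = 0.0105). Cdkn1a, the p53-induced cell cycle inhibitor, differed by -0.05 ± 0.12 and Mdm2, which degrades p53, by 0.03 ± 0.13, neither passing. Over both times none of 32 ER stress genes, 17 clock genes, 19 bile acid genes, 22 respiratory chain genes or 5 AhR targets passed in limma (0 in each list), and all 22 respiratory chain genes were slightly negative, with a median of -0.09, while Ndufb5, a complex I subunit, passed as lower at 72 h alone (-0.27 ± 0.07, limma adjusted p = 0.0448). Among 25 NRF2 targets Me1, the malic enzyme, passed (0.25), and of 28 cell cycle genes Pcna, the DNA polymerase clamp (-0.28). Of 19 glucocorticoid targets 3 passed as lower, Tat, Fkbp5 and Mt2A, and 1 as higher, Glul. Tat and Glul are the same calls as in the hepatocyte function list. Of 28 alternative fits, Tat passed in 22, Mt2A in 13, Glul in 10 and Fkbp5 in 8.

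How far the choice of control moves a compound's own values can be read for single genes, from group means with no test, since the comparisons share arrays. For a given gene and time, the 2 values of any compound are apart by the control difference itself. They restate that difference and carry no new result on the compound. Car3 at 72 h of NNK was -1.30 against its own control and 1.61 against the 2-nitrofluorene-set control, so its sign depends on the control taken. The second value also holds whatever else differed between the 2 sets. After 72 h of 2-nitrofluorene it was -4.17 against the NNK control and -1.26 against its own control. Pln, phospholamban, a regulator of the muscle calcium pump, was 4.27 at 24 h of NNK against the NNK control and 5.31 against the 2-nitrofluorene-set control. Its signal in the controls was 17.6, 17.3 and 14.7 at 24 h in the NNK control, against 7.38, 12.7 and 5.52 in the 2-nitrofluorene-set control, which did not pass (1.02 ± 0.34 over both times, limma adjusted p = 0.0976). Cyp4a1 at 24 h of 2-nitrofluorene was 6.41 against the NNK control and 5.58 against its own control, and Ehhadh 5.15 and 4.42 in the same order. Some compound values changed sign with the control: Pln at 24 h of 2-nitrofluorene was -0.52 against the NNK control and 0.52 against its own control, and Cyp4a1 at 72 h of NNK was 0.13 against the NNK control and -0.77 against the 2-nitrofluorene-set control.

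Promoters were searched for the CArG box, the site of serum response factor, a regulator of actin genes, written CC, then 6 bases of A or T, then GG, read on both strands. RefSeq windows (GRCr8) of 250 bases before to 50 after the gene's start were found for 8543 of the 10178 measured genes. The box was in 3 of 133 genes higher in the NNK control (2.26%), 0 of 153 lower and 115 of 8543 in all (1.35%), so the share among the higher genes differed by few genes. The other motifs searched were TGANTCA, the AP-1 site, in 4.51% of the higher, 8.5% of the lower and 4.81% of all genes, and GGAATG, the TEAD site, in 11.3%, 15.7% and 11.2%. All 3 are in the wider actin list, which was drawn up after values were seen, so their membership is no result. The 3 are shown 5′ to 3′ with the box in capitals, since they are the only higher genes with it. They are Fhl2 at chr9:52954601-52954660, Rnd3 at chr3:55998606-55998665 and Svil at chr17:57462661-57462695, each on the minus strand, the last ending at the gene's start.
Fhl2: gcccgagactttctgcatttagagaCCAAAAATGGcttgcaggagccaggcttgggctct
Rnd3: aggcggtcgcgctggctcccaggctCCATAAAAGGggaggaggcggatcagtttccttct
Svil: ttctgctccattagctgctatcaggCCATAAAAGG
Their log2 differences were 0.56 for Fhl2, a LIM domain cofactor, 0.35 for Rnd3 and 0.31 for Svil, supervillin, which ties actin to the membrane.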

How the data were processed

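RNA labelled with biotin was hybridised to rat arrays made by Affymetrix. MAS5 gave the values, per the submitters' processing notes; its version and settings are unstated. The authors deposited linear intensity values for 31099 probe sets, scaled so that each array's mean, trimmed by 2% at each end, is close to 100.0. No column of values went unused (0). The number of arrays limits the precision.

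Values below 3.12 (20th percentile) were set to it before log2 was taken, which understates changes near that floor. Apart from the 57 control probe sets, those with at least 1 of 24 group means at the table median (19.7) or above were tested, 18048 in all (58.1%). The fit used limma 3.58.1 in R 4.3.3 (lmFit, eBayes with trend) on the 36 arrays with D numbers 7, 8 and 9, with 12 group means and 6 blocks of time by D number (20 residual degrees of freedom). Benjamini-Hochberg adjustment ran over all probe sets within each contrast, with a threshold of 0.05. The labels speak of independent experiments for each compound. The p-values measure the spread between arrays within these blocks, arrays of the compounds included. They treat the 6 blocks as separate, although these come from D numbers 7, 8 and 9, each used at both times.

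The D numbers were used as pairs because deviations from group means correlated between same-numbered arrays of the 2 controls in all 6 pairs (0.211 to 0.496). Between different numbers the correlations were -0.375 to -0.0192. Deviations within a group sum to 0, so positive values for same numbers push those for different numbers below 0. The contrast is therefore partly arithmetic, and it comes from the same values that were tested. Symbols came from the platform annotation (20826 probe sets with 1 symbol, 436 with several, 9780 with none), and 10178 genes were taken by their brightest probe set. Named genes were the 10 largest rises and falls per contrast among passing genes with the same sign in every pair, no group wholly at the floor and the brighter mean at or above the table median. The 3 members of each list with the smallest p and a list of fixed genes were added, and further members named here (such as Vasp, Ilk, Lims1 and Pxn, Alb and the promoter genes) were chosen after their values were seen. The 29 lists, the 3 added lists, the fixed genes and the comparison itself were chosen with earlier results of these data known.

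On simulated data the fit for both times recovered 60% of changes of 0.5 and 88% of changes of 1 (log2). It made 6 false calls among the unchanged probe sets, of 18048 in all. The simulated arrays had the blocks of the fit and independent spread, so they cannot show whether these blocks are right for the real arrays. Alternatives covered the block, the arrays in the fit, the floor, the filter, the normalization, the variance trend, the actin ratio and each array or D number left out.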

Additional observations from a re-analysis of the deposited data

Results flagged for a closer look

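In 2 of 49 sets of 6 pair differences examined, 1 pair stood apart from the other 5 by Dixon's criterion, which about 1 set in 20 meets by chance. Hapln3, a matrix link protein, differed by -0.67 in the 24 h pair of D number 7 and by 0.23 to 0.73 in the other 5. Spetex2l2 differed by -0.58 in the 24 h pair of D number 9 and by 0.19 to 0.55 in the other 5. Both are dim genes of the fixed list, and neither passed over both times (0.20 ± 0.28 and 0.22 ± 0.27, limma adjusted p of 0.797 and 0.765).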

How the results depend on the processing

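The counts of calls over both times, at 24 h, at 72 h and for the difference between the times (517, 39, 281 and 0) depended most on the pairing. With no replicate block they were 11, 0, 7 and 0 in the 36 arrays and 0 for each with all 72 arrays. With a block by D number shared between times they were 25, 0, 15 and 0, with a random replicate block 189, 2, 66 and 0, and with the replicate block in the 12 control arrays alone 545, 63, 329 and 1. A floor of 16 gave 565, 33, 433 and 5, no filter 350, 11, 183 and 1, and quantile normalization 592, 16, 402 and 0, while no variance trend gave 6 at 24 h and 186 at 72 h. The actin ratio as a covariate gave 213, 3, 273 and 2, and the same covariate in the 12 arrays alone, chosen after seeing the data, 17, 0, 189 and 0. Adding 16 in place of a floor, or a filter on the 12 arrays' mean, moved no count by over 1.5 times. Where 0 passed in limma, the unadjusted p was under 0.05 for 556 over both times, 411 to 1745 at 24 h, 419 at 72 h and 292 to 1930 for the difference between times.

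Over 15 fits that left out a D number or 1 control array the counts ranged over 63 to 509, 0 to 80, 14 to 310 and 0 to 3. Single arrays moved the count over both times by more than 1.5 times when left out: at 24 h D numbers 7 and 9 of the NNK control (275 and 289) and 9 of the 2-nitrofluorene-set control (285), and at 72 h D numbers 8 and 9 of the 2-nitrofluorene-set control (267 and 297). The 72 h count was 120 and 142 without D numbers 7 and 8 of the NNK control and 122, 64 and 128 without 7, 8 and 9 of the 2-nitrofluorene-set control. At 24 h it was 0, 7 and 4 without 7, 8 and 9 of the NNK control at 24 h, 9 and 0 without 7 and 9 of the 2-nitrofluorene-set control at 24 h, 24 and 8 without 8 and 9 of that control at 72 h, and 80 without 7 of the NNK control at 72 h. All 517 kept their direction in each fit that tested them, which was largely fixed in advance. Fits that change only the block, the variance trend or the filter leave each difference unchanged by design. The others reuse arrays on which the 517 were chosen. The cause of the shifts in the counts was not tested, beyond the fewer samples in fits that leave arrays out.

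The culture-time difference was 0.129 to 0.167 without 1 D number, where exact permutation over 4 pairs cannot go below p = 0.125, and 0.145 with no replicate block (exact permutation p = 0.12) or with both times of a D number flipped together, chosen after seeing the data (exact permutation p = 0.25). It was 0.0890 with 100 probe sets. No value could be had with no filter or a floor of 16, where no probe set passed in the methapyrilene controls. The mean distance within pairs was 0.160 with 16 added. Of the fold changes, those of dim genes are limited by signal over background.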
